A study of Mus musculus with 6 samples.

Results

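The levels of 10 genes of osteoclast differentiation were followed across 6 mouse rhabdoid tumors: Acp5, Ctsk, Atp6v0d2, Ocstamp, Dcstamp, Slc9b2, Slc37a2, Nfatc1, Tnfrsf11a and Tnfsf11. They are 10 of 16557 measured genes and were chosen with their values in these tumors already known, so where they were high is given as a description, without a test. In each tumor, the UMIs of a gene (unique molecular identifiers, one per captured transcript) and the cells with at least 1 UMI were counted by cell class. A gene that a tumor's table did not list was counted as 0.

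All mice carried floxed Smarcb1 and a tamoxifen-inducible Cre, so the gene was lost during embryonic development, and no normal tissue was profiled. The 3 MYC spinal tumors came from Rosa26-cre mice 1172 (19 weeks), 1177 (26 weeks) and 1232 (17 weeks). The 3 extracranial tumors of the MYC subgroup (eRT) came from the Rosa26-cre mouse 1148 (17 weeks by its label, where the study's sample list gives another age; gland) and from the Sox2-cre mice 568 (29 weeks, jaw) and 593 (22 weeks, shoulder). Rosa26 is active in nearly all cells, whereas Sox2 drives Cre in the early embryo and in stem and progenitor cells. Each tumor was 1 mouse and 1 library of live, 7-AAD-negative cells. Subtype and site cannot be told apart here, and both Sox2-cre tumors were eRT.

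Osteoclasts are the bone-resorbing cells of the monocyte and macrophage lineage. Their precursors need macrophage colony-stimulating factor, which signals through Csf1r, and RANK ligand, encoded by Tnfsf11, which binds the receptor RANK, encoded by Tnfrsf11a, on the precursor. RANK signalling induces the transcription factor Nfatc1, which with AP-1, PU.1 and MITF switches on genes of cell fusion (Dcstamp, Ocstamp), acid secretion (Atp6v0d2, a proton pump subunit) and matrix breakdown (Ctsk, the collagen-degrading cathepsin K, and Acp5, tartrate-resistant acid phosphatase). Slc9b2 encodes a sodium/proton exchanger and Slc37a2 a sugar-phosphate transporter of the same cells.

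RefSeq promoter sequences (GRCm38.p6, 250 bases before a transcript start, 5′ to 3′ on the gene's strand) were held for 6 of the 10 genes. They were searched on both strands for the letters of 4 factors of this pathway, where N is any base. These were TGGAAA for NFAT, TGANTCA for AP-1, TCANNTGA for MITF and AGGAAGT for PU.1. TCANNTGA is a loose form of the M-box of MITF, labelled M-box below, and a match to it need not be an M-box. The windows that held a match, all of target genes, are shown with that of the ligand gene, which held none. The windows of Slc9b2 and Tnfrsf11a and the other 2 of Acp5 held none either, so no contrast between ligand and target genes is read from them. Capitals mark the matches.

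Acp5 (chr9:22130599-22130848, minus strand, the only 1 of its 3 starts with a match, NFAT at 117 and M-box at 91 bases before the start): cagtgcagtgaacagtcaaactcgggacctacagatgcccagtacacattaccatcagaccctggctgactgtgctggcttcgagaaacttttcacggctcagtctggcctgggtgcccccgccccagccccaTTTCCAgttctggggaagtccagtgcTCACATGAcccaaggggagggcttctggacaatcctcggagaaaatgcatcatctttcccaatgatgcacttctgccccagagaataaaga
Ctsk (chr3:95498960-95499209, plus strand, M-box at 136 bases before the start): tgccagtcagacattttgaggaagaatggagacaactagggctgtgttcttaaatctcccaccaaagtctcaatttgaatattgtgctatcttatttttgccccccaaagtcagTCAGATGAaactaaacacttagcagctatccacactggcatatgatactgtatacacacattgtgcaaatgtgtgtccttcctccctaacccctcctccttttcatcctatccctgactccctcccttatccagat
Slc37a2 (chr9:37255739-37255988, minus strand, AP-1 at 107 bases before the start): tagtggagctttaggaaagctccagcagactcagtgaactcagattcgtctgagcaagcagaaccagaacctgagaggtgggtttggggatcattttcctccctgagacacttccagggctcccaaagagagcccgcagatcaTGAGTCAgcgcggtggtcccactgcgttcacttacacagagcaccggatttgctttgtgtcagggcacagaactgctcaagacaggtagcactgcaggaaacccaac
Tnfsf11 (chr14:78308044-78308293, minus strand, no match): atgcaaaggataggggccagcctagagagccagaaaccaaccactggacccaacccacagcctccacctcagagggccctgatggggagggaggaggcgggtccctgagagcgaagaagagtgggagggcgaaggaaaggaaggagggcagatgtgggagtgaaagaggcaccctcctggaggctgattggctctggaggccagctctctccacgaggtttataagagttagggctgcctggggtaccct

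Of the 8 windows of the 6 genes, 1 held the NFAT letters, 1 the AP-1 letters, 2 the M-box letters and 0 the PU.1 letters. Among all 32851 promoter windows of the same length, 18.6% held the NFAT letters, 6.75% the AP-1 letters, 7.09% the M-box letters and 7.69% the PU.1 letters. Matches to such short motifs are descriptions of the sequence and not binding sites.

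After filtering, 22163 of 22681 cells were kept, from 1469 to 6740 per tumor, with 3841706 to 26184224 UMIs and a median of 916 to 5211 UMIs per cell. Cells were clustered without the 10 genes and named from marker lists that did not contain them either. The osteoclast-like class was named from Mmp9, Ckb, Car2, Calcr, Itgb3, Oscar, Clcn7, Ostm1, Tcirg1 and Atp6v1b2. It held 1534 cells in tumor 1232 and 809 in 1148, but only 1, 5, 26 and 24 in 1172, 1177, 568 and 593, and 1232 and 1148 therefore stand apart from the other 4 tumors. Monocyte/macrophage-like cells, in contrast, were found in all 6 tumors (180, 2162, 2741, 1134, 759 and 3013 in the order 1172, 1177, 1232, 1148, 568 and 593). Tumor cells were the clusters with under 0.25 of the Smarcb1 UMIs that their depth would give, and numbered 118, 16, 1665, 68, 202 and 629 in the same order. Deposited cells were numbered without barcodes, so shared barcodes between libraries were not counted.

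The 10 genes gave 356167 UMIs in all, of which 58.3% lay in tumor 1232 and 40.7% in tumor 1148. They made up 0.79% of all UMIs in 1232 and 1.14% in 1148, and at most 0.02% in any other tumor. The share of a gene's UMIs in these 2 tumors was highest for Ctsk (99.6%) and fell to 85.6% for the receptor gene Tnfrsf11a and 75.1% for the ligand gene Tnfsf11. Thus, 1 MYC spinal tumor and 1 eRT carried most transcripts of the 9 genes other than Tnfsf11, of which 1148 held 3 of 497 UMIs.

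Next, levels were compared in myeloid-like cells, the sum of monocyte/macrophage-, osteoclast-, dendritic-, neutrophil-, progenitor- and other myeloid-like clusters. Levels are given as CPM, the UMIs of a gene per 1000000 UMIs of that class and tumor. The level of Acp5 was 133, 13.6 and 6235 CPM in the MYC spinal tumors 1172, 1177 and 1232, and 5468, 60.4 and 103 CPM in the eRT 1148, 568 and 593. For Ctsk the MYC spinal tumors, in the same order, gave 18.8, 5.96 and 4378 CPM, while the eRT gave 5221, 1.70 and 61.5 CPM. For both genes the highest tumor of each subtype lay far above the other 2, and the subtypes overlapped.

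The acid and transport genes had the same 2 high tumors. Atp6v0d2 reached 1.05, 0 and 479 CPM in the MYC spinal tumors, compared with 510, 1.28 and 7.95 CPM in the eRT. Slc9b2 was not listed for 1172, 1177 and 568 and was counted as 0 there, as was Atp6v0d2 for 1177. Slc9b2 reached 196 CPM in 1232, 237 in 1148 and 6.58 in 593. Slc37a2 reached 17.8, 1.49 and 177 CPM in the MYC spinal tumors, compared with 224, 14.9 and 11.9 CPM in the eRT, so it had UMIs in the myeloid-like cells of every tumor.

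The fusion genes had the same 2 high tumors, and Ocstamp had UMIs in all 6. Ocstamp reached 6.28, 1.12 and 268 CPM in the MYC spinal tumors, compared with 178, 10.6 and 14.7 CPM in the eRT. Dcstamp was not listed for 1172 and 1177 and stood at 111 CPM in 1232, against 94.0, 12.3 and 3.01 CPM in the eRT. In 568, Dcstamp (29 UMIs in 21 cells) and Ocstamp (25 UMIs in 22 cells) were thus found in myeloid-like cells that held only 4 UMIs of Ctsk. Slc9b2 was not listed for this tumor.

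The regulator and the receptor had the narrowest range. Nfatc1 was found at 14.7, 21.2 and 197 CPM in the MYC spinal tumors, compared with 150, 20.0 and 18.8 CPM in the eRT. Tnfrsf11a, the receptor through which precursors are induced, was found at 13.6, 1.12 and 43.8 CPM in the MYC spinal tumors, compared with 59.2, 11.1 and 24.4 CPM in the eRT. Outside 1232 and 1148, both had UMIs in all 4 tumors, Nfatc1 in 14 to 127 and Tnfrsf11a in 6 to 173 myeloid-like cells.

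**Figure D1:**
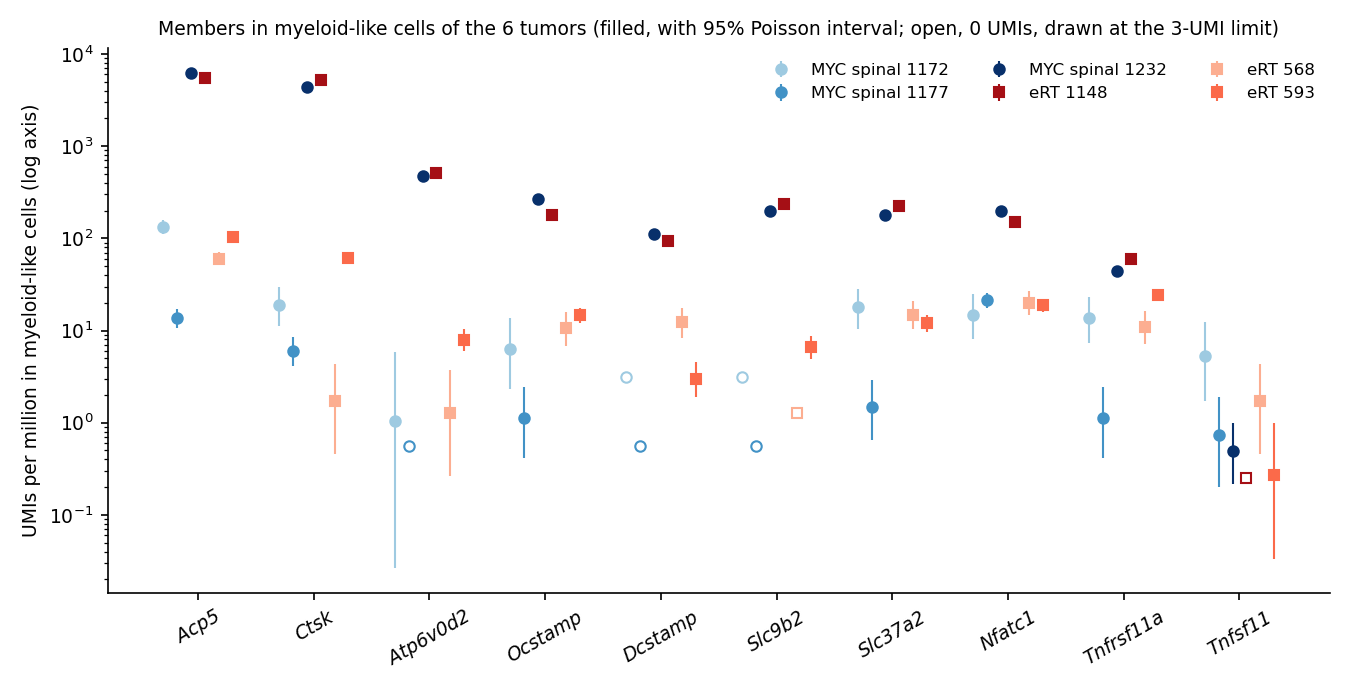
Level of each of the 10 genes in the myeloid-like cells of each tumor, in CPM on a log axis with 95% exact Poisson intervals, which cover counting error only; open symbols mark 0 UMIs and are drawn at the limit of 3 UMIs. Tumors 1232 and 1148 lie above the other 4 for every gene except Tnfsf11, which stays at or under 5.24 CPM in all 6.

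Whether the subtypes differed was tested on the UMIs summed over the myeloid-like cells of each tumor (edgeR quasi-likelihood test, 3 eRT against 3 MYC spinal tumors, Benjamini-Hochberg adjusted over 10546 genes). No gene passed an adjusted p of 0.05 (0% called), 135 had an unadjusted p under 0.05, and DESeq2 called 5. DESeq2 gave an adjusted p for 4 of the 10 genes (Dcstamp, Slc37a2, Nfatc1 and Tnfrsf11a), none of them called, and no adjusted p for the others. The log2 fold changes of the 9 genes tested ran from -0.54 ± 1.74 (SE) for Ocstamp to 0.69 ± 1.07 for Tnfrsf11a, with adjusted p = 0.9998 for each (edgeR). For Acp5 the log2 fold change was -0.31 ± 2.13 and for Ctsk 0.12 ± 2.58. These standard errors are wide, and such a test does not show that the subtypes were alike. Without tumor 1232 the median log2 fold change of the 9 genes was 4.72, without 1148 it was -2.78, and without both it was 1.59 over the 7 genes then tested. Without 1232, 3 of the 9 had an unadjusted p under 0.05, and in none of these fits was any of them called. In bulk sums of this kind, fewer cells of a type and less RNA per cell cannot be told apart.

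The cells that carried the genes were examined next. Within osteoclast-like cells, the level of Acp5 was 11828 CPM for 1232 against 9480 CPM for 1148, and that of Ctsk was 8942 against 9695 CPM. In 1232, all 1534 osteoclast-like cells had Acp5 and 1523 had Ctsk, and in 1148, 796 and 747 of 809 did. A median osteoclast-like cell held 50 Acp5 and 36 Ctsk UMIs in 1232 and 62 and 40 in 1148.

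Atp6v0d2, the proton pump subunit, stood at 929 and 905 CPM in the osteoclast-like cells of 1232 and 1148. The exchanger gene Slc9b2 stood at 381 and 419 CPM and Slc37a2 at 336 and 379 CPM. Of the fusion genes, Ocstamp stood at 495 and 326 CPM and Dcstamp at 227 and 161 CPM. By counting error alone, both fusion genes were higher in 1232, both carrier genes were higher in 1148, and Atp6v0d2 had overlapping intervals.

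Nfatc1 stood at 310 and 244 CPM in these cells and Tnfrsf11a at 56.4 and 76.9 CPM, found in 347 of 1534 and 324 of 809 cells. Tnfsf11, the ligand gene, had no UMI in the 1534 cells of 1232 and none in the 809 cells of 1148, which allows shares of up to 0.20% and 0.37% of cells with a UMI. This limits the cells in which a UMI is captured, not the cells that express the gene.

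By share of all UMIs, 89.3% of Ctsk, 85.4% of Slc9b2, 84.9% of Atp6v0d2, 84.2% of Dcstamp and 82.3% of Acp5 lay in osteoclast-like cells. The share was 65.8% for Nfatc1 and 49.3% for Tnfrsf11a. Of Tnfrsf11a, a further 40.2% lay in monocyte/macrophage-like cells.

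**Figure D2:**
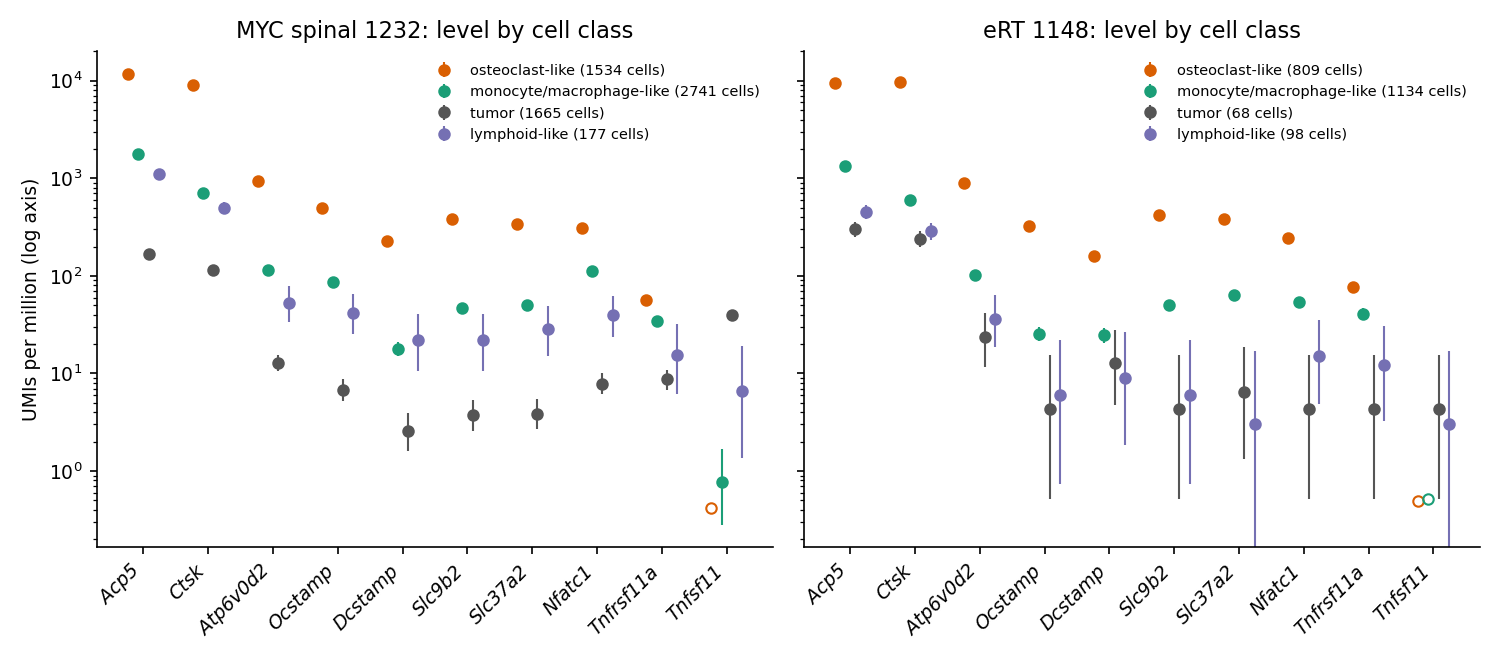
Level of each gene by cell class in tumors 1232 and 1148, in CPM on a log axis with 95% exact Poisson intervals for counting error; open symbols mark 0 UMIs, drawn at the limit of 3 UMIs. Osteoclast-like cells hold the highest level of each gene but Tnfsf11, of which the tumor cells of 1232 hold 39.3 CPM and the osteoclast-like cells none.

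The remaining myeloid-like cells of these 2 tumors held lower but large amounts. In monocyte/macrophage-like cells, the level of Acp5 was 1765 CPM for 1232 against 1336 CPM for 1148, and that of Ctsk was 701 against 600 CPM. Droplets also take up free RNA, so the share of lymphoid-like and of tumor cells with a Ctsk UMI is given beside that of monocyte/macrophage-like cells. After thinning each cell to 1000 UMIs, 18.3% of monocyte/macrophage-like cells and 18.6% of lymphoid-like cells had a Ctsk UMI in 1232, and 21.2% and 22.4% did in 1148. Of tumor cells, 9.79% did in 1232 and 19.1% in 1148. Before thinning the shares were 34.3% and 28.8% in 1232 and 60.7% and 55.1% in 1148. The thinned share with Ctsk was thus not above that of lymphoid-like cells, while its CPM was (701 against 500 in 1232, 600 against 287 in 1148), so no order was read from it. The part of free RNA in these levels was not tested. The thinned share with Acp5 was above that of lymphoid-like cells, at 47.0% against 26.0% in 1232 and 49.8% against 26.5% in 1148. In osteoclast-like cells, 96.0% (1232) and 72.1% (1148) had Ctsk at the same depth.

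The ratio of Acp5 to Ctsk UMIs differed between classes of 1 tumor. It was 1.32 in osteoclast-like, 2.52 in monocyte/macrophage-like, 2.19 in lymphoid-like and 1.45 in tumor cells of 1232. In 1148 it was 0.98 in osteoclast-like, 2.23 in monocyte/macrophage-like, 1.58 in lymphoid-like and 1.25 in tumor cells. In 1232, the neutrophil-like (1.29) and unnamed cells (1.28) were close to the osteoclast-like cells. In 1172, T-like cells held 326 Acp5 UMIs in 257 of 862 cells and no Ctsk UMI, so Acp5 there was found in cells without the protease.

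Within the monocyte/macrophage-like class the genes were uneven. In 1232, the cluster led by Fabp5 and Lpl (1048 cells) held 3149 CPM of Acp5, 1325 of Ctsk, 217 of Atp6v0d2 and 198 of Nfatc1. The cluster led by Apoe and the complement genes C1qa and C1qb (1186 cells) held 518, 125, 19.2 and 30.1 CPM of the same genes. In 1148, the highest such cluster (240 cells), led by the DNA synthesis genes Rrm2 and Tk1, held 2453 CPM of Acp5, 1208 of Ctsk and 118 of Nfatc1, against 750, 210 and 20.4 CPM in its largest macrophage-like cluster (262 cells). In both tumors, of the monocyte/macrophage-like clusters named here, the one with more Acp5 thus also held more Ctsk and more Nfatc1. In 1232 an unnamed cluster (191 cells) held 4076 CPM of Acp5 and 3177 of Ctsk with a median of 5284 UMIs per cell. Of its 23 cells with Tnfsf11, 13 were among the highest doublet scores, and the part of doublets in its values was not tested.

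Cells with UMIs of at least 3 of the 10 genes numbered 3725, of which 2504 were in 1232 (37.2% of its cells) and 1188 in 1148 (55.4%). The other tumors had 6 (1172), 3 (1177), 2 (568) and 22 (593) such cells. Of osteoclast-like cells, 1523 of 1534 in 1232, 760 of 809 in 1148, 11 of 24 in 593 and 3 of 5 in 1177 held at least 3. The median osteoclast-like cell held 7 of the 10 genes in both 1232 and 1148, and no cell held more than 9. Thinning to 1000 UMIs left 2304 such cells.

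**Figure D3:**
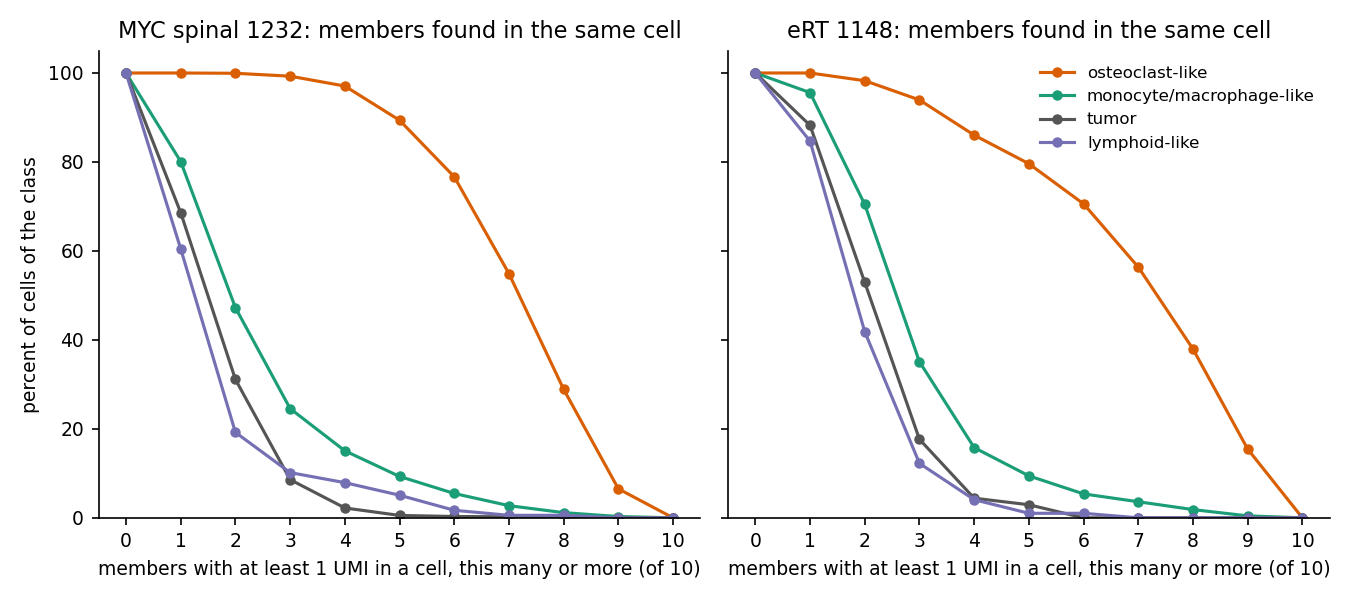
Share of the cells of each class, in percent, that hold UMIs of at least the number of genes on the horizontal axis (of the 10 genes), in tumors 1232 and 1148. The line of osteoclast-like cells stays far to the right, with a median of 7 genes per cell in both tumors against 1 (1232) and 2 (1148) in monocyte/macrophage-like cells.

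In the 4 tumors with few osteoclast-like cells the class name and the genes did not always go together. In 593, the 24 osteoclast-like cells held 5177 CPM of Acp5, 3657 of Ctsk, 630 of Atp6v0d2 and 457 of Slc9b2, levels of the same order as in 1232 and 1148. A single cell held 177 of the 460 Ctsk UMIs of this tumor (38.5%) and 5 cells held 80.4%. The 5 cells of 1177 held 34 Acp5 and 26 Ctsk UMIs, while Atp6v0d2, Dcstamp and Slc9b2 were not listed for this tumor. In 568, by contrast, the 26 cells placed in this class had Acp5 in 3, Ctsk in 2 and none of Atp6v0d2, Ocstamp, Dcstamp and Slc37a2. The genes thus go against the class name there, while Slc9b2 was not listed for this tumor. These 26 cells also had no UMI of Mmp9, Car2, Itgb3 and Clcn7. Calcr and Oscar had no UMI in any cell of 568, so their absence says nothing about these cells. The 26 cells held 9 UMIs of Ckb, 5 of Atp6v1b2, 3 of Ostm1 and 1 of Tcirg1. Of the T cell markers Cd3d and Cd3g, they held 212 and 291 CPM. All cells of 568 together held 237 and 227 CPM, and its lymphoid-like cells 818 and 809 CPM, so no T cell identity was read from these levels.

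Tumor cells held few transcripts of the resorption genes. For tumor cells of 1232 the levels were 168 CPM of Acp5 with 116 CPM of Ctsk, and for those of 1148 they were 299 CPM with 239 CPM. These were under the levels in lymphoid-like cells of the same tumors (1095 and 500 CPM in 1232, 453 and 287 CPM in 1148). In the other 4 tumors, tumor cells held at most 15 Acp5 and 7 Ctsk UMIs. Tnfrsf11a was found in 67 of 1665 tumor cells of 1232 (8.71 CPM) and in 29 of 629 of 593 (9.90 CPM), and in at most 2 tumor cells of each other tumor.

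Between the subtypes, the summed UMIs of the tumor cells were tested in the same way (edgeR, 5825 genes). No gene passed (0% called), 191 had an unadjusted p under 0.05 and DESeq2 called 19. None of the 10 genes had enough UMIs in the tumor cells of enough tumors to enter the fit, although those of 1232 held 1428 UMIs of Acp5 and 986 of Ctsk. Some fits that left out 1 tumor held 2 of the genes, neither of them called. With every gene entered, Tnfsf11 had a log2 fold change of -3.92 ± 1.28 (SE) in eRT relative to MYC spinal tumors with an adjusted p of 0.642 (edgeR), and its UMIs came almost wholly from tumor 1232. The tumor cells of 1177 numbered only 16.

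The source of the ligand was examined last. Tnfsf11 gave 497 UMIs in all 6 tumors, 370 of them in 1232, 85 in 1172, 16 each in 568 and 593, 7 in 1177 and 3 in 1148. In 1232, 334 of the 370 UMIs (90.3%) lay in tumor cells, in 204 of 1665 cells (12.3%, 95% exact interval 10.7 to 13.9), at 39.3 CPM (35.2 to 43.8) and with up to 14 UMIs in 1 cell. Only 4 of these 204 cells also had a T cell marker, and 10 were among the highest doublet scores.

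The tumor cells of 1232 fell into 3 clusters, with 42.2 CPM in the largest (1388 cells), 27.3 in a cluster of 97 cells and 4.97 in one of 180 cells. The unnamed cells of this tumor held 25 UMIs, its myeloid-like cells 8 and its lymphoid-like cells 3. Tumor cells thus held the ligand and osteoclast-like cells of the same tumor held the receptor, at 39.3 and 56.4 CPM of their own class. The receptor gene was not particular to osteoclast-like cells. Monocyte/macrophage-like cells held 40.2% of its UMIs over all tumors, and tumor cells of 1232 also held some. Signalling between these classes was not tested.

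In the other tumors, tumor cells held almost none. There were 2 UMIs in 118 tumor cells of 1172 (3.20 CPM, 0.39 to 11.6), 2 in 68 of 1148 (4.27 CPM, 0.52 to 15.4) and 2 in 629 of 593 (0.66 CPM, 0.08 to 2.38). In 568 no UMI was found in 202 tumor cells, which allows up to 4.80 CPM, and in 1177 none in 16 cells, which allows up to 66.0 CPM. The intervals of 1172, 1148, 568 and 593 lie below that of 1232, whereas 1177 was too shallow to tell. These intervals cover counting error only, and 1232 is 1 tumor.

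In 1172, 568 and 593 most ligand UMIs lay in T-like cells. In 1172, T-like cells held 68 of the 85 UMIs in 55 of 862 cells, at 39.7 CPM (30.8 to 50.3). Its B-like cells held 7 UMIs in 5 of 50 cells, and its myeloid-like cells 5 UMIs in 5 of 241 cells. Each of these B-like and myeloid-like cells with Tnfsf11 also had a T cell marker, and the part of doublets was not tested. In 593, T-like cells held 12 of 16 UMIs (63.2 CPM, 32.6 to 110). In 568 they held 11 of 16 (18.1 CPM, 9.1 to 32.5), with 4 more in 3 myeloid-like cells, each with a T cell marker. Of the 7 UMIs of 1177, 1 lay in T-like and 4 in myeloid-like cells. The 3 UMIs of 1148 lay in 2 tumor cells and 1 B-like cell. Its osteoclast-like cells numbered 809 (37.8% of its cells), while its library held only 68 tumor and 27 T-like cells. The source of the ligand in this tumor was not tested.

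**Figure D4:**
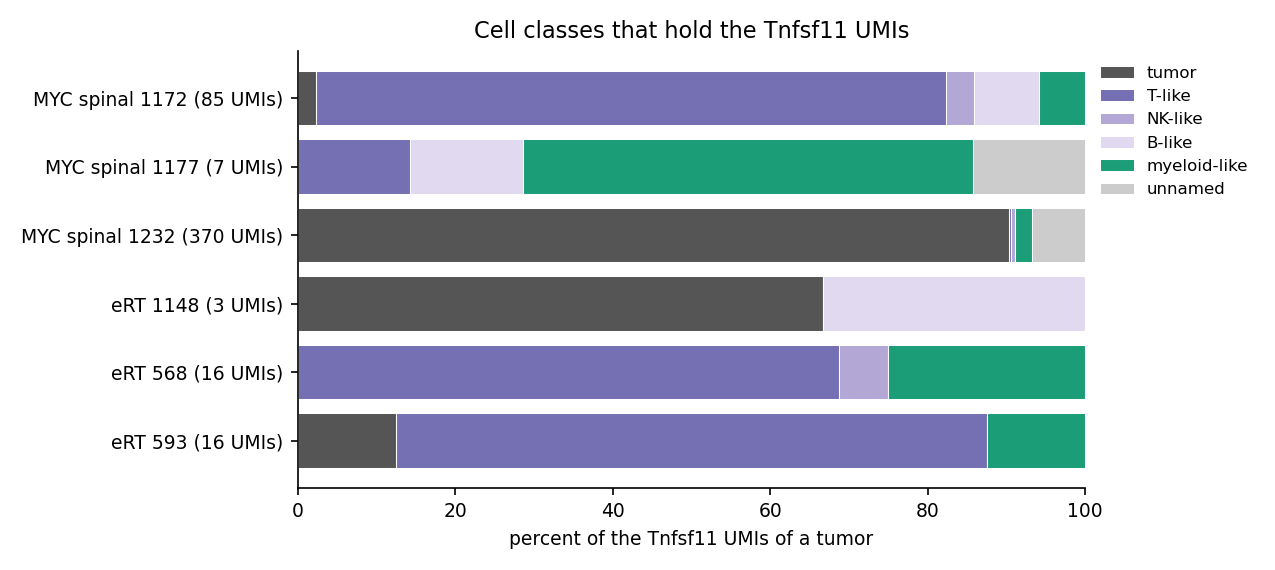
Share of the Tnfsf11 UMIs of each tumor, in percent, by cell class, with the number of UMIs beside each tumor's name. In 1232 the tumor cells hold 334 of 370 UMIs and in 1172 the T-like cells hold 68 of 85, while 1177 and 1148 rest on 7 and 3 UMIs.

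Osteoblasts and osteocytes are the usual source of RANK ligand in bone, and hypertrophic chondrocytes another. Of their markers, Bglap and Col2a1 had no UMI in any tumor. The summed level of the 7 osteoblast and osteocyte markers was 5.69 CPM in 1232 and 2.05 CPM in 1148, against 17.1 to 83.6 CPM in the other 4 tumors. Runx2, a transcription factor gene that other cells also express, gave all 26 of these UMIs in 1148, all 115 in 568 and all 185 in 593. It gave 136 of 149 in 1232 and 476 of 543 in 1177. In 1172 it gave 54 of 80, and 47 of these 54 lay in lymphoid-like cells. In 1177, Ibsp, a bone matrix gene, had 56 UMIs, of which 37 lay in its 16 tumor cells (814 CPM) with 4 of Sp7. Tumor cells of 1172 held 18 UMIs of Dmp1 and 8 of Sp7. Of the chondrocyte markers, Acan had 35 UMIs in 1232, 32 of them in tumor cells. Tnfrsf11b, the decoy receptor that blocks the ligand, had 9 UMIs in 568 and 29 in 593. In 1172, 1177, 1232 and 1148 none was counted, with the same limit. Tumor cells of 1172, 1177 and 1232 held 27.2, 242 and 103 CPM of Csf1, the other factor that precursors need, whereas those of 1148, 568 and 593 held 135, 89.7 and 753 CPM. The second ligand of Csf1r, Il34, gave at most 62 UMIs in any tumor. Tumor 593, with the highest Csf1 level of the 6 in its tumor cells, had 24 osteoclast-like cells, and any relation between them was not tested.

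The other 56 genes of the pathway were then read in osteoclast-like against monocyte/macrophage-like cells of 1232 and 1148. This describes cells that were clustered on expression and is not a test. A log2 ratio of at least 1 in both tumors was found for 546 of 10766 genes (5.07%), and of -1 or lower in both for 1198 (11.1%). Of the 9 genes under study that could be measured, 8 were at least that much higher (median 2.75 in 1232 and 2.83 in 1148). The exception was the receptor gene Tnfrsf11a, at 0.70 and 0.91.

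Among resorption genes, 13 of 16 were higher in both tumors. Of these, Mmp9, Calcr, Ckb, Car2, Clcn7, Tcirg1 and Atp6v1b2 had served to name the osteoclast-like class, as had Itgb3 and Oscar of the lists that follow, so their ratios restate how the class was named. The other 6 were Atp6v1a, Atp6v1c1, Atp6v0b, Plekhm1, Snx10 and Sh3pxd2a, with ratios of 1.28 to 2.71 in 1232 and 1.16 to 2.16 in 1148. Mmp9, a gelatinase, stood highest in 1148 (3.40 in 1232 and 4.22 in 1148). Car2, the carbonic anhydrase that supplies protons, was at 2.66 and 2.99, and the proton pump subunit gene Atp6v1a at 2.26 and 2.16. The subunit gene Atp6v0a1 was lower (-1.87 and -2.03), whereas Tcirg1, which encodes the a3 subunit of the osteoclast pump, was higher (1.62 and 1.22).

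Of 14 transcription factors, Fosl2, Jdp2 and Prdm1 were higher in both tumors. Prdm1 (1.09 and 1.79) is known to repress inhibitors of osteoclast formation. Irf8, the gene of such an inhibitor, was lower (-3.00 and -2.99), while Spi1, which encodes PU.1, changed little (0.26 and 0.37).

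Receptor genes were less altered: of 14 measured, Oscar, an immunoreceptor of osteoclasts, was higher (5.05 and 5.83), Sirpb1a was lower (-3.99 in each) and Csf1r was at 0.16 and 0.00. Of 9 fusion and adhesion genes, Itgb3 (4.63 and 4.68), Itgav and Siglec15 were higher and Cd81 was lower. Between the subtypes, 0 genes of these 4 lists were called in myeloid-like cells and 0 in tumor cells (edgeR, with 0% of all genes called). In myeloid-like cells 49 of the 56 were tested. In tumor cells, Ckb and Lgr4 were the 2 with an unadjusted p under 0.05.

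**Figure D5:**
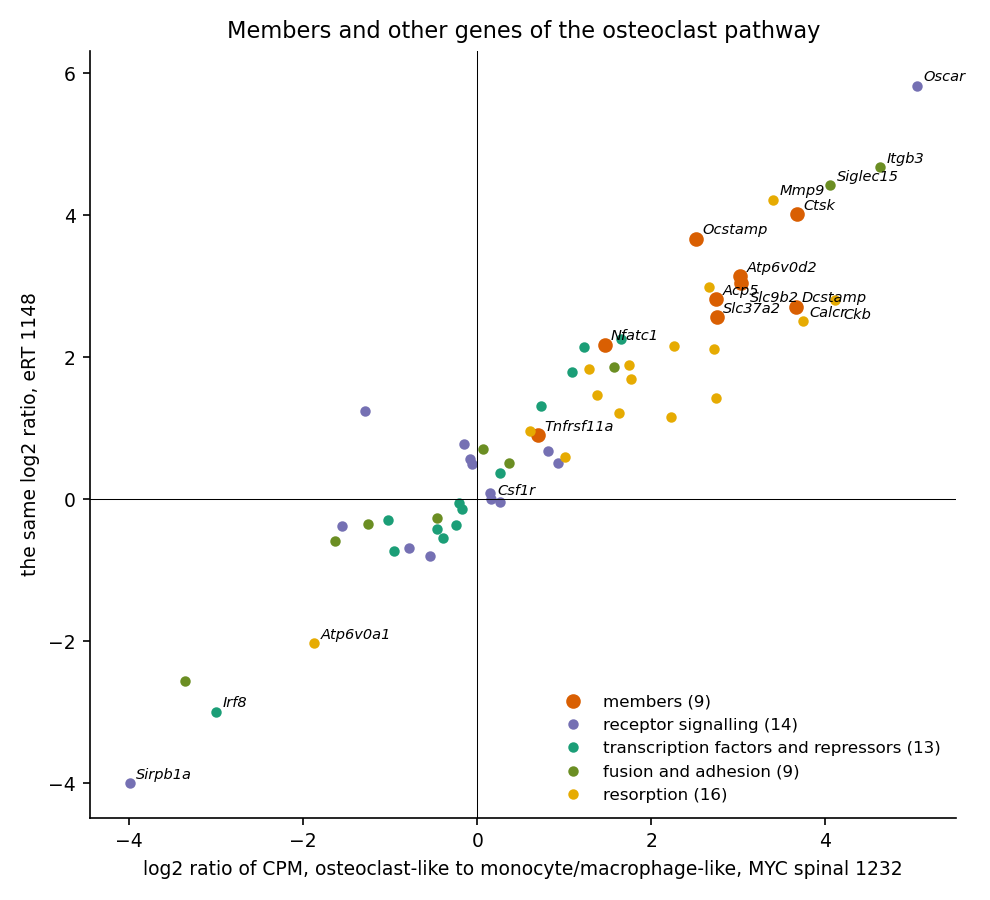
Log2 ratio of CPM in osteoclast-like to monocyte/macrophage-like cells for the genes studied (labelled members) and the 4 pathway lists, tumor 1232 on the horizontal and 1148 on the vertical axis. Resorption genes lie to the upper right, with Atp6v0a1 at -1.87 and -2.03, and Irf8 lies to the lower left.

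The genes whose pattern was most like the 10 were sought among 1269 others in 1232, 1148 and 593, the 3 tumors with at least 10 myeloid-like cells holding 3 or more of the genes. They were ranked by the smallest log2 ratio of CPM in these cells to CPM in the other myeloid-like cells of the same tumor. Mt3, a metallothionein gene, was first (6.11, 5.31 and 9.01 in 1232, 1148 and 593), followed by Mmp9 (4.94, 5.30 and 9.36), Kbtbd11 (4.20, 5.61 and 5.50) and Bdh2 (3.86, 3.86 and 7.40). Nudt22, Chchd10, Pstpip1, Ext1, Xpr1, a phosphate exporter gene, and 1110008P14Rik followed with smallest ratios from 3.16 to 2.43. By the same measure the genes that chose the cells ranged from 1.66 for Tnfrsf11a to 6.20 for Atp6v0d2. The values of 593 rest on 21 cells.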

How the data were processed

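Single-cell suspensions of 6 mouse rhabdoid tumors, each 1 mouse, were profiled with the 10x Chromium 3′ kit (v2). The authors made the deposited count tables with Cell Ranger 2.0.2 on mm10, as the submitters' processing notes and the methods give them: raw UMI counts per gene and cell, of genes found in at least 3 cells of a tumor. Here, a cell was kept if it had 200 or more genes and no more than 25% of its UMIs from mitochondrial genes. Each subtype's tumors were joined by anchors in Seurat 5.3.0 (R 4.3.3; 2000 variable genes without the 10 genes, 30 dimensions, 20 neighbors, resolution 0.8). Clusters were named where at least 3 markers of a list were raised, and tumor clusters by Smarcb1 under 0.25 of the expected UMIs. Scrublet (scanpy 1.11.5) marked 21 cells as doublets (0.09%), too few to be a working call, and none was removed. Leaving out the 843 cells of highest score was an alternative.

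Levels are CPM of summed UMIs with 95% exact Poisson intervals, and shares of cells have 95% exact binomial (Clopper-Pearson) intervals. Where a count was 0, the limit is 3 counts of the total. Intervals cover counting error only. For shares compared across depths each cell was thinned to 1000 UMIs and shallower cells were left out, which kept 1387 of 1469 cells in 1172, 2592 of 5749 in 1177, 1586 of 2042 in 568, 3990 of 4020 in 593 and all cells of 1232 and 1148. UMIs were summed per tumor and class and tested with edgeR 4.0.16 (TMM, filterByExpr, quasi-likelihood, Benjamini-Hochberg at 0.05), after a run on simulated counts, with DESeq2 1.42.0 as an alternative. The study compared subtypes cell by cell, whereas here the tumor is the replicate. The 10 genes, the pathway lists and the marker lists were chosen with earlier results of these data known. Named genes are all 10 and the 10 others most like them. The pathway genes were counted by list, and since none was called, those named with values were picked after their values were seen; 1 pathway gene is not reported here. Promoter windows are from RefSeq (GRCm38.p6), and no entry was held for Atp6v0d2, Ocstamp, Dcstamp and Nfatc1.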

Additional observations from a re-analysis of the deposited data

How the results depend on the processing

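In myeloid-like cells edgeR called 0 genes in every alternative fit and DESeq2 5. In tumor cells DESeq2 called 19. Of 142 alternative values of a single gene's log2 fold change between subtypes, 0 passed the threshold, and the sign turned in 23 of 54 that left out 1 tumor and in 10 of 88 others. With mouse model as a covariate, the log2 fold change turned to 1.22 for Acp5, 1.52 for Atp6v0d2, 0.80 for Ocstamp, 1.16 for Dcstamp and 0.79 for Nfatc1. Without TMM factors it turned to 0.11 for Atp6v0d2. Without tumors 1232 and 1148 together, chosen after seeing the data, it was 0.43 for Acp5, 2.19 for Ocstamp, 7.92 for Dcstamp and 0.15 for Nfatc1. Leaving out 1 tumor, values ran from -4.62 to 4.72 for Acp5, -5.45 to 7.14 for Ctsk, -4.98 to 9.40 for Atp6v0d2, -2.78 to 4.43 for Ocstamp, -2.25 to 10.58 for Dcstamp, -4.13 to 11.70 for Slc9b2, -2.20 to 3.30 for Slc37a2, -1.93 to 1.67 for Nfatc1 and -0.029 to 2.40 for Tnfrsf11a, with the extremes without 1232 or 1148.

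The osteoclast-like share of the genes' UMIs was 81.5% in 1232, 90.5% in 1148 and 43.4% in 593. It was 85.9% and 84.1% in the first 2 at resolution 1.6, 84.9% and 90.7% without the highest Scrublet scores, and 81.7%, 90.0% and 29.0% in the 3 tumors when each cell was thinned. Cells with 3 or more genes went from 3725 to 2304 when thinned, since fewer UMIs are left. The tumor-cell share of Tnfsf11 in 1232 went from 90.3% to 94.4% without the highest Scrublet scores. The cause of these shifts was not tested. No paired analysis was possible because the tumors are different mice and the replicate numbers, given in accession order, tie no MYC spinal tumor to an eRT. With 3 tumors a group, 1 of them rich in each, the fold changes of the 9 genes were smaller than their standard errors.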
